A study of Mus musculus with 4 samples.

Results

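The nuclear genes of oxidative phosphorylation encode most subunits of the 5 complexes of the mitochondrial inner membrane that carry electrons and make ATP. They were taken by gene symbol, as the *Nduf*, *Sdha* to *Sdhd*, *Uqcr*, *Cox4* to *Cox8* and *Atp5* families. This gave 92 of the 53379 genes of the files after 7 symbols containing -ps had been left out. They comprise 36 subunits of complex I, 4 of complex II, 8 of complex III, 20 of complex IV, 15 of complex V (ATP synthase), 8 assembly factors of complex I and *Atp5s*, which is not a subunit. The cells were mouse embryonic stem cells (mESCs) of line DKO741, derived from E14 cells by deleting both alleles of *Terc*, which encodes the RNA template of telomerase. Such cells lose telomere sequence until survivors emerge that keep their telomeres by alternative lengthening of telomeres (ALT). RNA of pre-ALT cells at population doubling 100 (PD100) was compared with that of post-ALT cells at population doubling 800 (PD800), with 2 libraries in each group that the study describes as biological duplicates. The labels also call these time points passages, both groups lack *Terc*, both come from a single line, and the cells had been stocked on fibroblast feeders but were feeder-free when RNA was extracted.

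Electrons from NADH enter the respiratory chain at complex I, those from succinate enter at complex II, and both pass through complexes III and IV to oxygen. Complexes I, III and IV pump protons, and ATP synthase uses the resulting gradient to make ATP. Most subunits come from nuclear genes scattered over the chromosomes, a small set comes from the mitochondrial genome, and several subunits of complex IV exist as a widespread isoform and a second isoform restricted to muscle, lung or testis. Pluripotent cells are known for relying strongly on glycolysis while keeping a working respiratory chain.

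Total expected counts per library lay between 32454121 and 38492149. *Terc* had 1 count in 1 PD100 library and 0 in the other 3. All 8 stem cell markers were detected, with a summed level of 2025 and 2327 CPM (read counts relative to the library total, scaled by edgeR's TMM factors) at PD100 and of 3705 and 3811 CPM at PD800. Markers of other cells moved with the groups too. The 8 primitive endoderm markers summed to 1192 and 1374 CPM at PD100 and to 60.0 and 68.0 CPM at PD800. None of them was at or under 3 counts in every library. The 8 fibroblast markers summed to 49.5 and 71.5 CPM against 14.6 and 15.6 CPM, with *Lum* at or under 3 counts in every library. The part of either in the differences between the groups was not tested, and in bulk RNA fewer cells of a type and less RNA per cell cannot be told apart.

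Per unit of length, the ATP synthase genes were the most abundant group. The median gene of ATP synthase had 142 TPM (the deposited unit, which corrects for length and library total) at PD100 and 144 TPM at PD800, ahead of complex III with 119 and 111 TPM. Complex IV followed with 83.2 and 82.6 TPM, then complex I with 52.2 and 50.4 TPM and complex II with 45.7 and 42.4 TPM. The complex I assembly factors, which help to build the enzyme without staying in it, lay far below at 8.20 and 10.9 TPM. Across all 92 genes, *Atp5b*, the catalytic beta subunit of ATP synthase, stood highest with 823 TPM at PD100 and 763 TPM at PD800. *Atp5b* and *Atp5a1*, the alpha subunit, together held 27.1% of the summed CPM of the 92 genes at PD100 and 27.4% at PD800. The spread of levels within a complex differed as well. The 4 genes of complex II had means between 39.9 and 49.2 TPM at PD100 (*Sdhc* alone ran from 31.3 to 53.9 TPM between its libraries). Those of complex IV ran from *Cox6a2*, the muscle isoform with 0 counts in every library, to *Cox4i1* with 484 TPM.

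Whether the summed level of the 92 genes was higher at PD800 depended on what it was set against. As deposited, the sum was 8940 and 8222 TPM at PD100 and 8282 and 8002 TPM at PD800, and the groups overlapped. Nuclear protein-coding genes held 33.7% and 31.8% of all TPM at PD100 but only 28.5% and 27.3% at PD800. Rescaled to the same total over those genes alone, the summed TPM was 26544 and 25839 at PD100 and 29062 and 29263 at PD800, a ratio of 1.11 with no overlap. In TMM-scaled CPM the sum was 7663 and 8261 at PD100 and 8801 and 9087 at PD800, a ratio of 1.12, again with no overlap. On this scale the sum over all tested genes also had a ratio of 1.08, and that over nuclear protein-coding genes 1.02. With 2 libraries a group an exact permutation test of such a sum cannot give a p below 0.333, so none is given.

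**Figure D1:**
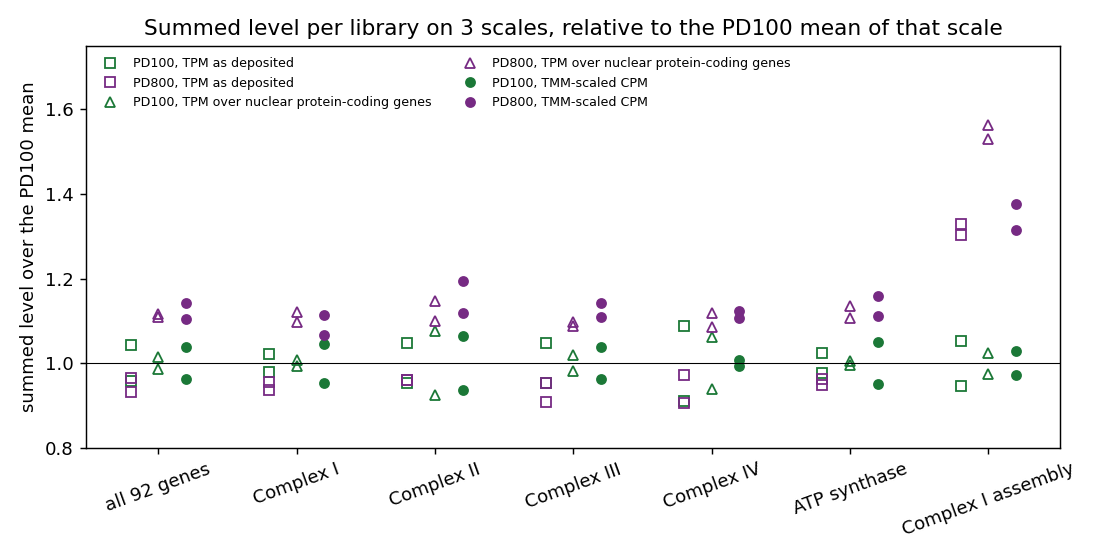
Summed level of all 92 genes and of each complex in every library (points, green PD100, purple PD800), divided by the PD100 mean of the same scale, on the vertical axis. Squares are TPM as deposited, triangles TPM rescaled over nuclear protein-coding genes, and filled circles TMM-scaled CPM. The PD800 triangles lie above the PD100 triangles in every group, whereas the squares overlap or lie lower except for the complex I assembly factors.

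Of the 92 genes, 89 had enough counts to be tested. The other 3 were complex IV isoforms of muscle or testis: *Cox6a2* at 0 counts in every library, *Cox8b* with 1, 1, 1 and 0 counts, and *Cox8c* with 1 and 1 counts at PD100 and 9 and 6 at PD800. At an adjusted p under 0.05 (edgeR quasi-likelihood test, adjusted over all 19148 tested genes), 26 genes were higher and 8 lower at PD800. These are 29.2% and 8.99% of the 89, where 22.1% of all tested genes were called higher and 23.6% lower. The share called higher lay somewhat above that of all genes and the share called lower below it. Over nuclear protein-coding genes only, 37 were higher and 8 lower, beside 27.4% and 29.3% of the genes of that fit. With no expression filter, 37 were higher and 9 lower, beside 15.3% and 16.5%. DESeq2's Wald test called 25 higher and 7 lower, beside 17.4% and 19.9%. The median log2 fold change of the 89 genes was 0.16, and that of all tested genes was 0.01. Both libraries of PD800 lay above both of PD100 for 48 of the 89 genes and below them for 15, beside 37.4% and 36.4% of all tested genes. On the TPM scale (limma on log2(TPM + 1)) the split turned to 7 higher and 14 lower and the median to −0.05, where the median of all genes was −0.12. That fit called 9.25% of all genes higher and 26.6% lower, so the 89 genes lay below all genes in both directions. Of the 26 genes called higher, 7 were also called higher in TPM, *Ndufaf8*, *Cox6b2*, *Cox7a1*, *Cox7b*, *Ndufa12*, *Atp5e* and *Uqcrc2*, and of the 8 called lower, 6 were, all but *Uqcr10* and *Uqcrq*. The counts also rested on single libraries: 41 were called higher without PD100 replicate 2, 13 without PD800 replicate 1 and 12 without PD800 replicate 2, beside 24.2%, 11.7% and 12.7% of all genes, and the number called lower was 15 without PD100 replicate 1, 2 without PD800 replicate 1 and 3 without PD800 replicate 2, beside 27.1%, 14.1% and 14.1%. The fall in the counts without a PD800 library was thus shared by all genes. Of the 34 calls, 14 were kept with any 1 library left out, those of *Ndufa9*, *Ndufa12*, *Ndufab1*, *Ndufs4*, *Uqcrc2*, *Cox6b2*, *Cox7a1*, *Cox7b*, *Cox7a2l*, *Atp5e*, *Atp5j2*, *Ndufaf4*, *Ndufaf7* and *Ndufaf8*. The other 20 were lost without a PD800 library, with no change of sign.

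**Figure D2:**
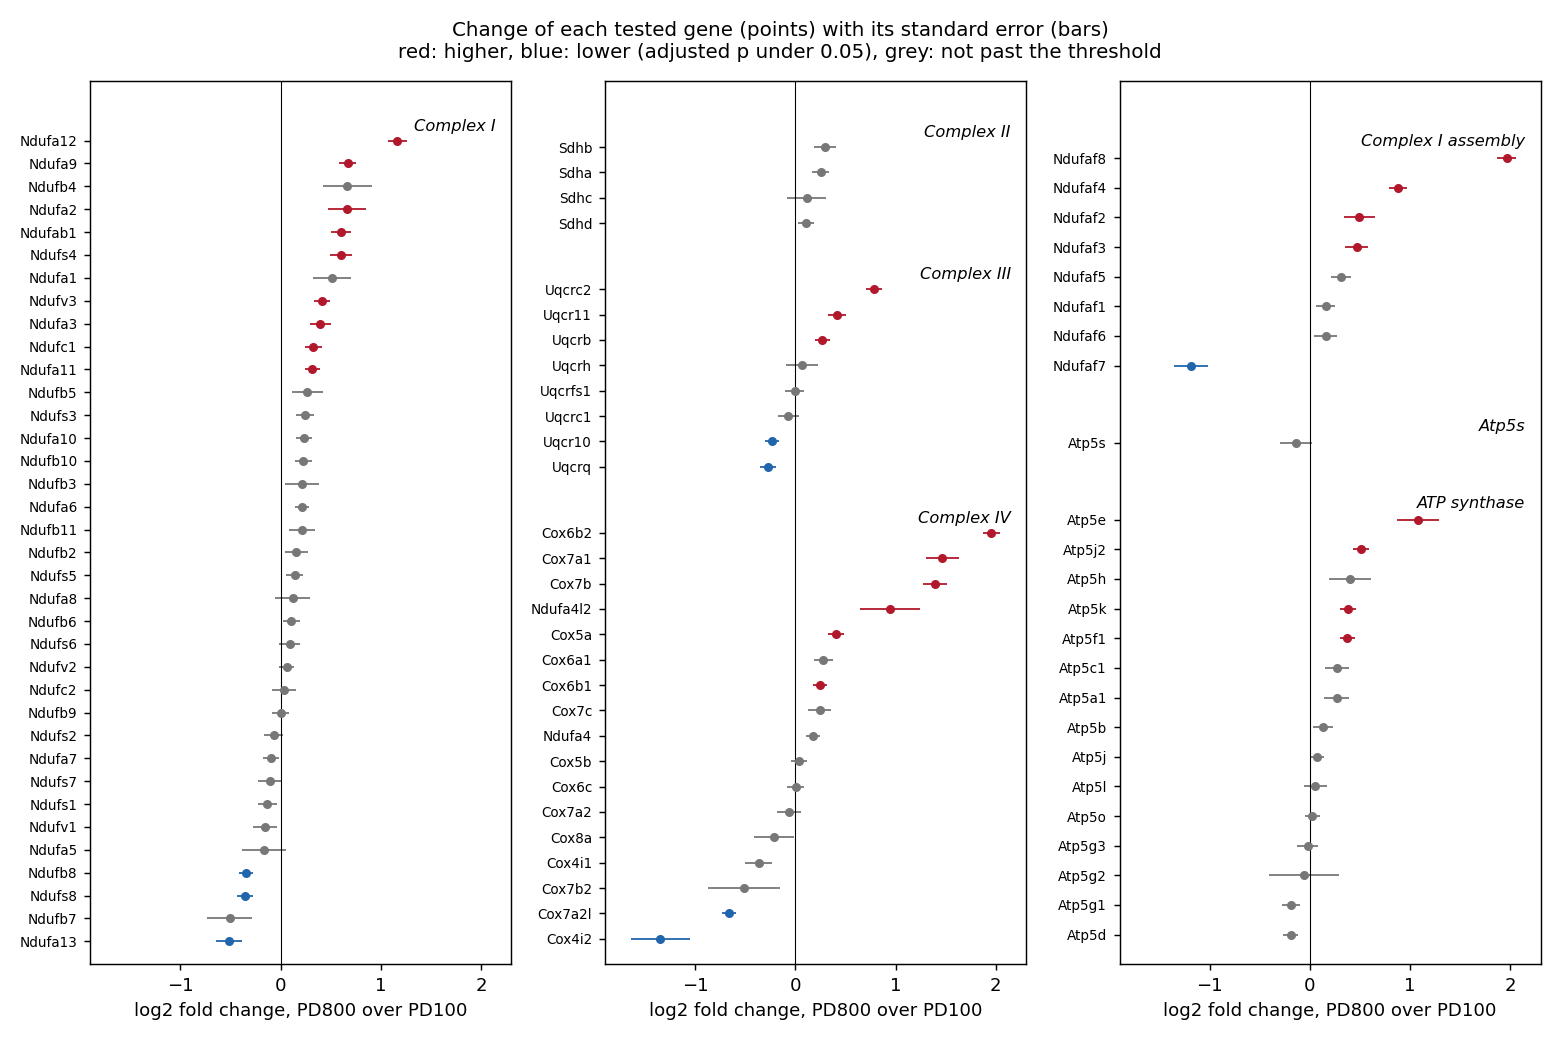
Log2 fold change from PD100 to PD800 on the horizontal axis for each of the 89 tested genes, grouped by complex, with the standard error of the edgeR fit as bars. The 26 genes called higher are red, the 8 called lower blue and the 55 others grey; the points beyond 1 in either direction belong to complex IV, the assembly factors, *Ndufa12* and *Atp5e*.

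When a gene also had to change more than 2-fold at an adjusted p below 0.01, 6 rose and 1 fell. Of all tested genes, 6.28% rose and 8.81% fell by that rule. The 6 were *Ndufaf8*, *Cox6b2*, *Cox7a1*, *Cox7b*, *Ndufa12* and *Atp5e*, and the 1 that fell was *Ndufaf7*. 3 of the 6 encode subunits of complex IV. On both TPM scales 4 of the 6 passed this rule. *Ndufa12* and *Atp5e* did not, with log2 fold changes of 0.93 (adjusted p = 0.0125) and 0.88 (adjusted p = 0.0111) by limma on log2(TPM + 1). With 1 added to the TPM, 1.55% of all tested genes rose by this rule and 4.80% fell. With 0.1 added, these shares were 2.78% and 9.29%. None of the 7 overlaps another annotated gene.

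*Ndufaf8* (ENSMUSG00000078572.3, chr11:120098928-120100705, plus strand, GRCm38) encodes an assembly factor of complex I. It had 5.20 and 5.33 CPM at PD100 and 20.2 and 20.8 CPM at PD800. The groups lay far apart with replicates almost equal, and the log2 fold change was 1.96 ± 0.09 (SE; adjusted p = 6.95e-05). It was 1.65 to 1.99 in the other fits. *Cox6b2* (ENSMUSG00000051811.14, chr7:4751792-4753094, minus strand), the testis isoform of a small subunit that faces the intermembrane space, had 7.30 and 7.69 CPM at PD100 and 29.2 and 29.0 CPM at PD800. Its change matched that of *Ndufaf8* in size, 1.96 ± 0.09 on the log2 scale (adjusted p = 6.16e-05).

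*Cox7a1* (ENSMUSG00000074218.3, chr7:30184144-30186078, plus strand), the heart and skeletal muscle isoform of subunit 7A, had 3.29 and 4.28 CPM at PD100 and 9.70 and 11.1 CPM at PD800. The log2 fold change was 1.46 ± 0.16 (adjusted p = 0.00103). The 8 muscle markers summed to 29.8 and 35.4 CPM at PD100 and to 38.4 and 37.0 CPM at PD800. *Cox7b* (ENSMUSG00000031231.4, chrX:106015700-106022450, plus strand), another small subunit of complex IV, is far more abundant. It had 114 and 91.5 CPM at PD100 and 276 and 263 CPM at PD800, a log2 fold change of 1.39 ± 0.12 (adjusted p = 0.00039). In TPM, *Cox7b* went from 116 to 255, and at PD800 it was the second most abundant gene of the complex after *Cox4i1*.

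*Ndufa12* (ENSMUSG00000020022.16, chr10:94198720-94221443, plus strand), an accessory subunit added late to complex I, had 51.7 and 44.5 CPM at PD100 and 109 and 107 CPM at PD800. The log2 fold change was 1.16 ± 0.09 (adjusted p = 0.000324). At 163 TPM it was the most abundant complex I gene of the post-ALT cells, a place held by *Ndufb8* with 164 TPM in the pre-ALT cells. *Atp5e* (ENSMUSG00000016252.7, chr2:174461072-174464105, minus strand), the small epsilon subunit in the stalk of ATP synthase, had 9.16 and 14.4 CPM at PD100 and 23.5 and 26.0 CPM at PD800. The PD100 libraries differed widely, and the log2 fold change of 1.08 ± 0.21 (adjusted p = 0.00759) was 0.79 without PD100 replicate 1 and 1.41 without PD100 replicate 2. *Ndufaf7* (ENSMUSG00000024082.4, chr17:78937136-78948052, plus strand), a methyltransferase that acts on a core subunit during complex I assembly, had 15.3 and 21.4 CPM at PD100 and 7.64 and 8.46 CPM at PD800. It fell by 1.19 ± 0.17 on the log2 scale (adjusted p = 0.00281), and by 0.96 without PD100 replicate 2, which is short of 2-fold.

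**Figure D3:**
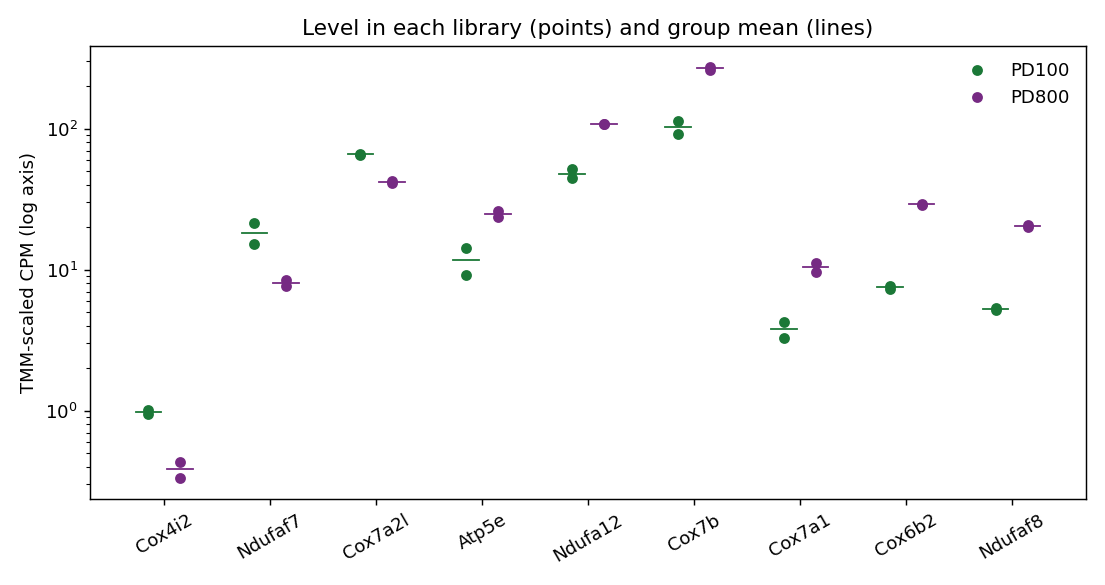
TMM-scaled CPM in each of the 4 libraries (points; log axis) with the group mean (lines) for the 7 genes past the stricter rule, for *Cox4i2* and for *Cox7a2l*, ordered by fold change. In all 9 genes the green PD100 and purple PD800 points do not overlap, and the PD100 points of *Atp5e* and *Ndufaf7* are the most spread.

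In complex I, the 29 supernumerary subunits, which surround the catalytic core, had 9 higher and 2 lower, beside 22.1% and 23.6% of all tested genes, with a median log2 fold change of 0.22 (−0.03 in TPM). Beside *Ndufa12*, *Ndufa9*, near the quinone site, had 63.2 and 56.3 CPM at PD100 and 97.1 and 92.8 CPM at PD800, a log2 fold change of 0.67 ± 0.09 (adjusted p = 0.00177). *Ndufab1*, the mitochondrial acyl carrier protein, went from 45.1 and 37.8 CPM to 63.2 and 62.9 CPM. Both calls were lost on the TPM scales, with limma's log2 fold changes of 0.42 (adjusted p = 0.0752) for *Ndufa9* and 0.30 (adjusted p = 0.161) for *Ndufab1* on log2(TPM + 1). The 7 nuclear core subunits, which hold the flavin and the iron-sulphur clusters, had a median of −0.11 (−0.31 in TPM). Among them only *Ndufs8* passed the threshold. It had 28.0 and 29.9 CPM at PD100 and 22.0 and 23.3 CPM at PD800, a log2 fold change of −0.35 ± 0.08 (adjusted p = 0.0162), and the call was lost without PD800 replicate 1 (0.192) or 2 (0.119). The log2 fold changes of the other 6 core subunits lay between −0.15 (*Ndufv1*) and 0.24 (*Ndufs3*). The difference between core and supernumerary subunits was not tested. *Ndufa13* had the lowest value of the complex at −0.51 ± 0.13 (adjusted p = 0.0195), with 72.1 and 91.6 CPM before and 55.1 and 59.5 CPM after, but the call was lost without PD800 replicate 1 (adjusted p = 0.126) or 2 (0.0589). Its reads may be shared with those of *Yjefn3*, which overlaps it on the same strand. They may also be shared with those of *Tssk6* on the opposite strand, since the strand setting of the counting is not given in the sources used here.

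None of the 4 genes of complex II passed the threshold in the TMM-scaled edgeR test, with DESeq2's Wald test or with limma on TPM. By edgeR, 22.1% of all tested genes were called higher and 23.6% lower, and 4 genes are few beside such shares. With edgeR, 2 of the 4 had an unadjusted p under 0.05. *Sdhb*, the iron-sulphur subunit, had the highest log2 fold change at 0.30 ± 0.11 (adjusted p = 0.0775), and the flavin-carrying *Sdha* followed at 0.25 ± 0.08 (adjusted p = 0.0512). Both were called higher over nuclear protein-coding genes only (adjusted p = 0.0379 and 0.0238) and with no filter (0.012 and 0.0334), so these genes lay close to the threshold. The membrane anchors *Sdhc* and *Sdhd* were at 0.12 ± 0.20 and 0.11 ± 0.08. In complex III the genes moved both ways. *Uqcrc2*, one of the large core proteins, had 107 and 96.6 CPM at PD100 and 178 and 172 CPM at PD800, a log2 fold change of 0.78 ± 0.08 (adjusted p = 0.000793). Its partner *Uqcrc1* was at −0.07 ± 0.10 (adjusted p = 0.618), with 181 and 208 CPM before and 176 and 195 CPM after. These core proteins are present in equal number in the enzyme, and the difference between their changes was not tested. The small subunits *Uqcr11* and *Uqcrb* were also higher at 0.42 ± 0.09 (adjusted p = 0.0123) and 0.27 ± 0.08 (adjusted p = 0.0308), and *Uqcr10* and *Uqcrq* were lower at −0.23 ± 0.07 (adjusted p = 0.0393) and −0.27 ± 0.08 (adjusted p = 0.0365). All 4 of these calls were lost on both TPM scales, and those of *Uqcr10* and *Uqcrq* also with DESeq2's Wald test. By limma on log2(TPM + 1) the adjusted p was 0.412 for *Uqcr11*, 0.743 for *Uqcrb*, 0.0525 for *Uqcr10* and 0.146 for *Uqcrq*. Without PD800 replicate 1 or 2 none of these 4 calls held, with an adjusted p of 0.122 and 0.0809 for *Uqcr11*, 0.257 and 0.242 for *Uqcrb*, 0.333 and 0.369 for *Uqcr10* and 0.200 and 0.347 for *Uqcrq*.

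Of the 8 isoform groups compared, all but that of *Atp5g* belong to complex IV. *Cox6b2* made up 7.69% and 7.05% of the TPM of *Cox6b1* and *Cox6b2* together at PD100 and 21.2% and 21.4% at PD800. The widespread *Cox6b1* had 198 and 190 TPM before and 196 and 181 TPM after, so in TPM the share moved through *Cox6b2*. By edgeR *Cox6b1* was itself called higher, with a log2 fold change of 0.25. That call was lost with DESeq2's Wald test (adjusted p = 0.0527) and with limma on log2(TPM + 1) (adjusted p = 0.751). Within the *Cox7a* genes, *Cox7a1* went from 7.48% and 10.3% to 22.9% and 26.5%. *Cox7a2l*, which joins complexes III and IV into supercomplexes, went the other way, from 37.9% and 41.2% to 25.3% and 24.8%. It had 66.5 and 65.1 CPM at PD100 and 42.3 and 40.9 CPM at PD800 and fell by 0.66 ± 0.07 on the log2 scale (adjusted p = 0.000966). The ubiquitous *Cox7a2* kept 54.6% and 48.5% before and 51.8% and 48.7% after.

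In the remaining isoform groups of complex IV, every gene but the most abundant of its group was rare. *Cox4i2*, the lung isoform of subunit 4 that is known to respond to low oxygen, had 38 and 34 counts at PD100 and 12 and 14 at PD800, that is 0.284% and 0.243% of the *Cox4* transcripts before and 0.117% and 0.147% after. Its log2 fold change was −1.35 ± 0.30 (adjusted p = 0.0128), and the call was lost with DESeq2's Wald test (adjusted p = 0.078) and without PD800 replicate 1 (adjusted p = 0.101). Over the alternatives its adjusted p ran from 0.00101 to 0.101. *Cox4i1* itself, whose reads may be shared with the overlapping *Emc8* and *Gm20388*, had 322 and 421 CPM before and 281 and 296 CPM after (−0.36 ± 0.14, adjusted p = 0.0727), and it was called lower by DESeq2 (adjusted p = 0.0208) and by limma on log2(TPM + 1) (0.0151). *Ndufa4l2*, a paralogue of the complex IV subunit *Ndufa4* that hypoxia is known to induce, had 1.19 and 2.16 CPM before and 3.17 and 3.20 CPM after. The log2 fold change was 0.94 ± 0.30 (adjusted p = 0.0444; 0.0972 and 0.0954 without PD800 replicate 1 or 2, and 0.148 by limma on log2(TPM + 1)), on 48 to 114 counts a library and with *Shmt2* overlapping the gene. *Cox7b2*, the testis counterpart of *Cox7b*, stayed under 1% of the pair in every library.

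**Figure D4:**
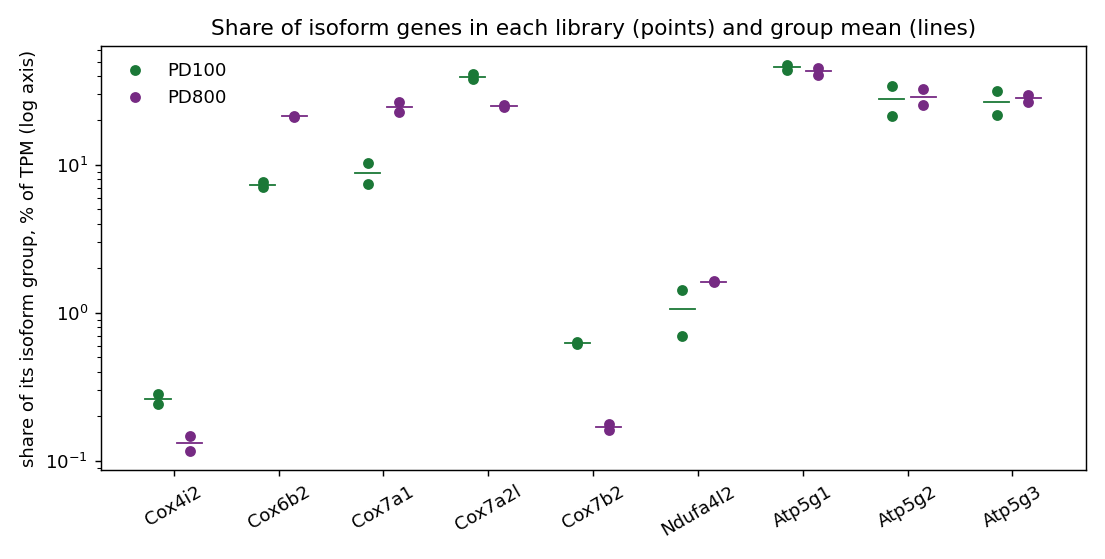
Share of 9 isoform genes in the TPM of its isoform group (percent, log axis) in every library (points) with the group mean (lines), green for PD100 and purple for PD800. The PD800 shares lie above those of PD100 for *Cox6b2*, *Cox7a1* and *Ndufa4l2* and below them for *Cox7a2l*, *Cox7b2* and *Cox4i2*, without overlap, while the points of the 3 *Atp5g* genes overlap between the groups.

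Of the 15 ATP synthase genes, 4 were higher and 0 lower by edgeR, beside 22.1% and 23.6% of all tested genes. At an unadjusted p under 0.05 the test gave 1 lower, DESeq2 gave 0 lower after adjustment, and limma on TPM gave 1. Of the 11 not past the threshold, *Atp5d* and *Atp5g1* had the lowest values (−0.19 each, adjusted p = 0.0885 and 0.126). Among those called, *Atp5e* was followed by *Atp5j2*, *Atp5k* and *Atp5f1*, which belong to the membrane part and the outer stalk, with log2 fold changes of 0.51, 0.38 and 0.37. These 3 calls were lost on the TPM scales, where limma on log2(TPM + 1) gave 0.31, 0.16 and 0.13 (adjusted p = 0.153, 0.464 and 0.296). Without PD800 replicate 1 or 2, the adjusted p was 0.160 and 0.0922 for *Atp5k* and 0.124 and 0.130 for *Atp5f1*, which overlaps *Wdr77*. The 3 *Atp5g* genes encode the same mature c-ring subunit. *Atp5g1* gave 44.1% and 47.2% of their TPM at PD100 and 40.8% and 45.0% at PD800. *Atp5g2* had the widest gap between replicates of all 89 genes, 141 against 64.3 CPM at PD100 and 112 against 85.5 CPM at PD800, and its log2 fold change of −0.06 ± 0.35 became 0.63 without PD100 replicate 1. Such gene families have many processed copies in the genome, among which the counting method divides reads, so their split is uncertain. In all, 9 genes differed over 1.5-fold between the PD100 libraries and 0 between the PD800 libraries.

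The assembly factors of complex I had the highest median of the groups, 0.39, with 4 of 8 higher and 1 lower, beside 22.1% and 23.6% of all tested genes. *Ndufaf4*, an early factor, had 20.4 and 18.2 CPM at PD100 and 35.7 and 35.3 CPM at PD800, a log2 fold change of 0.88 ± 0.09 (adjusted p = 0.000694). On log2(TPM + 1) it was 0.48 and was not called (limma, adjusted p = 0.0679). *Ndufaf2* and *Ndufaf3* rose less, by 0.49 and 0.46, but lie over parts of *Smim15* and *Impdh2* and lost their calls without PD800 replicate 1 (adjusted p = 0.104 and 0.0518) or 2 (0.132 and 0.137) and on the TPM scales (limma, 0.441 and 0.185). *Ndufaf8* and *Ndufaf7* are described above. The others, *Ndufaf1*, *Ndufaf5* and *Ndufaf6*, were between 0.16 and 0.31 and did not pass the threshold. The summed level of all 8 assembly factors was 94.8 and 100.4 CPM before and 128 and 134 CPM after. In the 38 assembly factors of all complexes that the symbol rule does not take, 9 were higher and 9 lower, with a median of 0.05. *Coa6*, a copper-handling factor of complex IV, fell by 1.28 ± 0.13 (adjusted p = 0.000636), from 8.37 and 8.35 CPM to 3.56 and 3.33 CPM.

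Several of the larger changes were shared by genes nearby on the chromosome. Each gene was set beside the median log2 fold change of its 40 nearest tested genes. Around *Ndufaf8*, 1.87 Mb from the last annotated gene of chromosome 11, that median was 1.48, with 35 of the 40 neighbours called higher and 0 lower. Around *Atp5e* it was 1.56 (33 higher, 1 lower), around *Ndufa12* 0.92 (29 higher, 2 lower), and around *Uqcrc2* 0.66. Most of the genes that fell lay among others that fell. The median was −0.84 around *Ndufaf7* (27 of 40 lower, 0 higher), −0.96 around *Cox7a2l* (31 lower, 0 higher) and −0.59 around *Ndufa13*. Of the 8 genes called lower, 7 had a neighbour median below −0.4, and the exception was *Cox4i2* at 0.10. Of the 26 called higher, only 9 had a neighbour median beyond 0.4, and for 5 it was below 0.

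The complex IV genes that rose most lay further above their neighbours. The neighbour median was 0.13 around *Cox6b2*, 0.06 around *Cox7a1* and 0.22 around *Cox7b*, with 9, 12 and 14 of the 40 called higher and 3, 5 and 7 lower, so that these genes lay 1.82, 1.41 and 1.17 above it. With the 20 nearest genes the median around *Cox6b2* was 0.54 and that around *Cox7b* 0.40, and with the 80 nearest they were 0.13 and 0.07. *Ndufaf4* (0.17) and *Ndufa4l2* (−0.07) also had a neighbour median near 0. Over the 89 genes, Spearman's rho between a gene's log2 fold change and its neighbour median was 0.62, and over 19110 tested genes it was 0.41. The share of genes with the sign of their neighbour median was 66.3% and 64.9%, or 73.0% and 65.3% with the 20 nearest genes and 70.8% and 64.7% with the 80 nearest. These are descriptions across genes of the same libraries, in which neighbouring genes share neighbours.

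**Figure D5:**
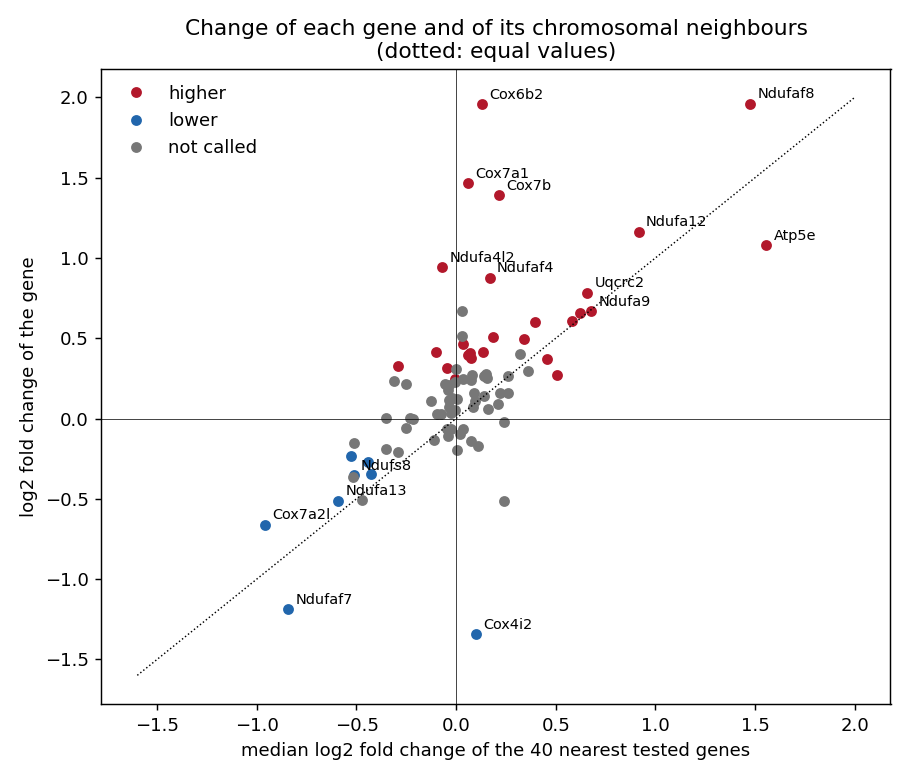
Log2 fold change of each of the 89 tested genes (vertical axis) against the median log2 fold change of its 40 nearest tested genes on the chromosome (horizontal axis), red for genes called higher, blue for lower and grey for the rest. *Ndufaf8*, *Atp5e*, *Ndufa12*, *Cox7a2l* and *Ndufaf7* lie towards the corners near the dotted line of equal values, whereas *Cox6b2*, *Cox7a1*, *Cox7b* and *Cox4i2* lie near a neighbour median of 0.

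Promoters of these genes are known for binding sites of the factors NRF1, NRF2 (GABPA, of the ETS family) and YY1. RefSeq promoters of GRCm38.p6, with 250 bases before and 50 after the start, were matched for 76 of the 92 genes, 2 of them through an older symbol. The letters CATGCGCA (NRF1), CCGGAAG (ETS) and AAGATGGC (YY1) were searched on both strands, and an ETS and a YY1 match may share the letters AAG. At least 1 of them was found in 32 of the 76, or 42.1%, beside 13.3% of all 27025 promoters. NRF1 letters were in 9 (11.8% beside 2.23%), ETS letters in 17 (22.4% beside 9.12%) and YY1 letters in 10 (13.2% beside 2.88%). A match describes the sequence and is not evidence of binding.

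The pair with the largest rise are printed because their promoters differ in this respect. These are the 250 bases before the start, 5′ to 3′ on the gene's strand, chr11:120098684-120098933 (plus) for *Ndufaf8* and chr7:4753095-4753344 (minus) for *Cox6b2*, with the ETS letters in capitals and no other searched motif in them.
Ndufaf8: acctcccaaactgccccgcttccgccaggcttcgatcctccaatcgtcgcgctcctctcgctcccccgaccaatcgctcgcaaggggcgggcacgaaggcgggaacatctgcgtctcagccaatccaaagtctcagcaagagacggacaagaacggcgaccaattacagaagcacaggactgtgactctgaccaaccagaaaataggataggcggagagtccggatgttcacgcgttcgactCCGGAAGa
Cox6b2: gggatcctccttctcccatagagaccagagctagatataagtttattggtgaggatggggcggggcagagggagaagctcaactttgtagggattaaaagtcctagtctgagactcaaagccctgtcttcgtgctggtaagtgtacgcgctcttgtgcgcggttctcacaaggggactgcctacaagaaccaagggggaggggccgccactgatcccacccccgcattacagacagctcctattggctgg
The *Ndufaf8* stretch ends in an ETS match just before the start and is followed by a YY1 match, and the *Cox6b2* promoter has no match in its whole length. *Cox7a1*, *Cox7b*, *Ndufa12* and *Ndufaf7* had none either, and *Atp5e* had an ETS match.

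The YY1 letters were in 7 of the 22 matched genes called higher, in 1 of the 6 called lower and in 2 of the 48 not called, a difference that was not tested. Of these 7, only *Ndufaf8* was also called on the TPM scales, and the calls of *Atp5f1*, *Ndufa3* and *Ndufc1* were also lost without PD800 replicate 1 or 2. Across all tested genes whose promoter holds these letters, 22.2% were called higher and 21.5% lower, with a median log2 fold change of 0.02, beside 24.0% and 26.8% of all 12059 tested genes with a promoter. The 7 sites and that of *Ndufb8*, which was lower, are shown with their flanks, the YY1 letters or their reverse complement in capitals.
Ndufaf8: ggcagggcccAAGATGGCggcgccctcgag
Ndufa9: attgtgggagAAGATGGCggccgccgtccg
Ndufs4: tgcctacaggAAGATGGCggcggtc
Atp5j2: ccaggacttcAAGATGGCgtcactcggtga
Ndufa3: cgccaagaacAAGATGGCcgggagtaagta
Atp5f1: tgtgcgagcgGCCATCTTgctcctgcccct
Ndufc1: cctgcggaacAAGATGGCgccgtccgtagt
Ndufb8: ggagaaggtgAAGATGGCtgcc
All but that of *Atp5f1* read in the direction of the gene. Of the 9 forward sites among the 10, 8 hold the annotated start codon of the gene in their ATG, so that these letters also encode the first amino acids. The window of *Ndufaf8* is chr11:120098934-120098963, that of *Ndufa9* chr6:126849096-126849125 and that of *Ndufs4* chr13:114388045-114388069. The ETS letters were in 5 of 22 called higher, 1 of 6 called lower and 11 of 48 not called, and the NRF1 letters in 1 of 22, 1 of 6 and 7 of 48. The differences between the motifs were not tested.

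Beyond the 92 genes, the 13 subunits from the mitochondrial genome summed to 17249 and 7906 CPM at PD100 and to 12924 and 10433 CPM at PD800. The PD100 libraries differed more from each other than the groups did. By edgeR 1 of the 13 was called, *mt-Atp6*, with 247 and 172 CPM before and 428 and 347 CPM after (log2 fold change 0.89 ± 0.19, adjusted p = 0.0117), and it did not pass on the TPM scales. The 19 genes of electron carriers and their synthesis were split into 4 higher and 5 lower, about the 22.1% and 23.6% of all tested genes. *Pdss2*, which makes the tail of ubiquinone, fell by 1.48 ± 0.14 (adjusted p = 0.000564), from 10.7 and 9.13 CPM to 3.72 and 3.36 CPM. Of 29 tested genes for mitochondrial biogenesis and mtDNA expression, 8 were higher (27.6%) and 7 lower (24.1%), beside the same 22.1% and 23.6%. *Mterf2*, of the family that binds mitochondrial DNA, had 6.44 and 5.78 CPM before and 14.3 and 15.9 CPM after (adjusted p = 0.000419). *Tfam*, the packaging factor of mitochondrial DNA, was lower at −0.69 ± 0.12 (adjusted p = 0.00465), and *Yy1* was higher at 0.84 ± 0.07 (adjusted p = 0.000394). *Nrf1* at 0.01 ± 0.07 and *Gabpa* at 0.13 ± 0.07 did not pass the threshold (edgeR adjusted p = 0.885 and 0.191). *Tfam*, *Yy1*, *Nrf1* and *Gabpa* were chosen after their values were seen.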

How the data were processed

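RNA of 2 PD100 and 2 PD800 libraries had been sequenced as 101 bp paired-end reads, aligned by the authors to mm10 with STAR 2.5.3a and counted with RSEM 1.3.0. The deposited expected count of a gene keeps the library's depth and shares out reads with several matches. The deposited TPM was scaled by the authors for length and brought to 1 total for all libraries. The annotation release and the strand setting are not given in the sources used here. The labels name total RNA and the paper mRNA. Of 53379 identifiers, 53274 were found in GENCODE M21 (GRCm38) after dropping versions, including all 92 genes, 77 of them with the same version.

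Rounded expected counts were tested with edgeR 4.0.16 (R 4.3.3) after filterByExpr (min.count 10) and TMM, by the quasi-likelihood test and Benjamini-Hochberg adjustment over all tested genes, with no covariate. The code was tested on simulated data. Alternatives were DESeq2 1.42.0 and its size factors, upper-quartile factors, nuclear protein-coding genes only, no filter, at least 10 counts in every library, limma 3.58.1 on log2(TPM + 1) and log2(TPM + 0.1), the replicate number as a block, and each library left out. The 20 or 80 nearest genes were added after seeing the data. Depth was 32454121 to 38492149 counts a library.

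Genes named are those past an adjusted p of 0.01 and a 2-fold change, the highest and lowest changes and highest TPM of each complex, the isoform groups, the *Sdh* genes and the complex I core. Any other gene was picked with its values known. The genes and lists were chosen with earlier results of these data known, so no p is adjusted over a list alone. The p-values measure the spread between duplicates of 1 line. The authors' own comparisons were not used.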

Additional observations from a re-analysis of the deposited data

How the results depend on the processing

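On the TPM scale (limma on log2(TPM + 1) and log2(TPM + 0.1)), 7 genes were called higher and 14 lower in both fits, beside 9.25% and 9.27% of all genes higher and 26.6% and 27.0% lower. The medians were then −0.051 and −0.054 for all 89 genes, −0.0665 and −0.0681 for complex I, −0.055 and −0.056 for complex II, −0.18 and −0.19 for complex III, −0.0491 and −0.0494 for complex IV, −0.11 and −0.11 for ATP synthase and 0.13 and 0.14 for the assembly factors, while the medians of all tested genes were −0.12 and −0.21. *Cox6b1*, at 0.25 by edgeR, turned to −0.044 and −0.0442. The log2 ratio of the summed level, −0.08 in TPM, was 0.16 over nuclear protein-coding TPM and 0.17 in CPM. By the stricter rule 2 genes fell with nuclear protein-coding genes only, with no filter, with at least 10 counts in every library, with log2(TPM + 0.1) and with the replicate block. In the same order, those fits called 11.3%, 6.91%, 8.21%, 9.29% and 10.2% of all tested genes lower by that rule. Leaving out 1 library gave 12 to 41 genes higher and 2 to 15 lower, beside 11.7% to 27.0% and 14.1% to 27.1% of all genes, or 5 to 7 and 0 to 1 by the stricter rule. The medians then ran from 0.12 to 0.21 for all 89 genes, 0.0606 to 0.23 for complex I, 0.16 to 0.36 for complex II, −0.12 to 0.18 for complex III, 0.0829 to 0.21 for complex IV, 0.11 to 0.18 for ATP synthase and 0.26 to 0.45 for the assembly factors, and the value of *Atp5g2* from −0.54 to 0.63. The log2 ratio of the summed TPM was −0.13 to −0.01. The causes were not tested.

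The replicate block gave 42 genes called higher and 10 lower, beside 27.2% and 27.5% of all genes. The block was no part of the main design, and the labels do not say that the numbers pair the libraries. The deviations of same-numbered libraries correlated at 0.27, a single value since with 2 libraries a group the deviations mirror each other, and the 9 genes over 1.5-fold apart between the PD100 libraries differed the same way between the PD800 libraries. With 2 libraries a group, small changes are hard to call in genes with a wide standard error. On the log2 scale it was 0.35 for *Atp5g2* and 0.36 for *Cox7b2*, but 0.07 for *Ndufb8*, which was called at −0.35.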

Other observations

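Further groups of mitochondrial genes were measured as a background to the respiratory chain. Of the 78 mitochondrial ribosomal protein genes, which make the mitochondrially encoded subunits, 16 were higher and 15 lower at PD800 with a median log2 fold change of 0.03, near the 22.1% and 23.6% of all tested genes. *Mrpl12* had 40.8 and 57.5 CPM at PD100 and 105 and 120 CPM at PD800 and rose by 1.20 ± 0.17 on the log2 scale (adjusted p = 0.00246, edgeR). *Mrps35* had 31.9 and 35.6 CPM before and 67.5 and 68.4 CPM after and rose by 1.01 ± 0.09 (adjusted p = 0.000385). Of the 19 genes of the tricarboxylic acid cycle and pyruvate entry, 4 were higher and 6 lower, beside the same 22.1% and 23.6%. *Idh2*, the mitochondrial isocitrate dehydrogenase that uses NADP, had 55.3 and 68.5 CPM before and 128 and 131 CPM after and rose by 1.06 ± 0.11 (adjusted p = 0.000864).

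Cytosolic ribosomal proteins are short, abundant transcripts like those of the respiratory chain. The symbols taken for them included 10 S6 kinases, among them *Rps6kl1*, which fell by 1.38. Without the kinases, 6 of 92 were higher and 12 lower with a median of 0.00, below the same 22.1% and 23.6%. *Rpl10l* rose by 2.29 ± 0.11 (adjusted p = 7.1e-05), *Rpl36a* by 1.84 ± 0.11 and *Rps4l* by 1.36 ± 0.09, while *Rps12* fell by 1.27 ± 0.09.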
